A study of Homo sapiens with 6 samples.

Results

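The immediate early genes EGR1, EGR2, EGR3, FOS, FOSB, JUN, JUNB, JUND, ATF3 and IER2 are 10 of the 19974 protein-coding genes on chromosomes 1-22 and X whose chromatin was examined in U937 cells, an established human monocytic line. They were taken by name and by no threshold on a measured value, though with earlier results of these data known. For each gene, the peaks listed for each of 6 ATAC-seq libraries were collected within 1000 bp of either gene end, inside the gene and within 50 kb of it. ATAC-seq marks open chromatin by the sites where a transposase inserts sequencing adapters, and a peak is an interval where reads pile up above the local background. Of these, 3 libraries came from ΔNSPs U937 cells, in which the neutrophil serine proteases CTSG, ELANE and PRTN3 were depleted, and the design text calls them independent clones. The other 3 libraries came from U937 lines carrying control plasmids, which are described as lines and not as clones. Cells of both groups were selected with 500 µg/ml geneticin, exposed to 200 units/ml of DNase for 30 min, and frozen in a medium with 5% DMSO before the assay. No agent that induces immediate early genes is named for either group. The titles give each library a group and a number, and by the descriptions above each was taken as a separate clone or line. The spread between libraries was so read as a spread between clones and between lines.

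Immediate early genes are transcribed within minutes of a growth factor, cytokine, phorbol ester or stress signal, without new protein synthesis. MAP kinase signalling phosphorylates the ternary complex factors bound with serum response factor at CArG boxes, and CREB or ATF proteins at cyclic AMP response elements, and these sites lie close to the transcription starts. The products are themselves transcription factors: EGR proteins bind GC-rich sites through zinc fingers, and FOS and JUN proteins pair through leucine zippers to form AP-1. In the monocytic lineage EGR1 and AP-1 are known for their part in differentiation towards macrophages.

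The peak lists of the 2 groups were of very different length. On chromosomes 1-22, X and Y, ΔNSPs clones 1, 2 and 3 had 14262, 24981 and 2188 peaks, against 13, 4 and 2 peaks in control lines 1, 2 and 3. Among the clones, clone 2 had by far the longest list and clone 3 the shortest. No batch is labelled, so group, list length and any batch cannot be told apart. The lowest −log10 p of a listed peak was 4.89, 4.86 and 5.75 in clones 1, 2 and 3, against 7.77, 8.07 and 8.9 in control lines 1, 2 and 3. The lowest −log10 q was 2 in each clone, and 2.3, 2.29 and 2.73 in control lines 1, 2 and 3. With so few control peaks, their lowest values are not known to be the thresholds of calling. The absence of a peak from a list is not a measurement of closed chromatin, and the read totals are unknown. Inside or within 1000 bp of the depleted genes, clone 2 had 1 peak, at CTSG (3.20-fold), no other clone or control line had any, and ELANE and PRTN3 had none in any library, so the lists do not check the depletion. The listed markers of the cell type were looked for as well. A gene or region is called clone-shared where 2 or more clones had a peak in the window named and none of the control lines did. At gene ends 3 of 24 monocytic and myeloid genes (12.5%) were clone-shared, namely ITGAM, TYROBP and CD68, against 23.3% of all protein-coding genes. By clone, 6, 11 and 1 of the 24 had a gene-end peak in clones 1, 2 and 3, against 39.1%, 29.6% and 6.55% of all genes. Of the 24, 10 had none in any clone, SPI1, ITGB2, FCGR1A, LYZ and MPO among them. Clone-shared T cell genes were 1 of 7 (CD3E) and clone-shared erythroid genes 1 of 4 (KLF1). B cell, epithelial and liver, and neuronal genes had 0 of 6, 0 of 5 and 0 of 4 clone-shared. No control line had a peak at a gene end of any of these markers.

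The promoters of 7 of the genes, each with a peak in at least 1 clone near or over its start, are shown because the results below place peaks on named stretches of them. Each run is the 250 bases before a listed transcription start, from RefSeq (GRCh38.p14), read in the direction of transcription, so that its last base lies next to the start. Capitals mark matches on either strand to the CArG box, the cyclic AMP response element TGACGTCA and its shorter form TGACG, the AP-1 site TGANTCA, the TATA box (TATAAA) and the CCAAT box. FOSB also had a peak at its start, in clone 1, but that peak covered none of the matches found there, and its promoter is not shown. The stretches are chr5:138465229-138465478 on the plus strand, chr10:62816367-62816616 on the minus strand (the third of 3 listed starts), chr14:75278578-75278827 on the plus strand, chr1:58784048-58784297 on the minus strand, chr19:12791236-12791485 on the plus strand, chr19:18281623-18281872 on the minus strand and chr19:13150161-13150410 on the plus strand.
EGR1: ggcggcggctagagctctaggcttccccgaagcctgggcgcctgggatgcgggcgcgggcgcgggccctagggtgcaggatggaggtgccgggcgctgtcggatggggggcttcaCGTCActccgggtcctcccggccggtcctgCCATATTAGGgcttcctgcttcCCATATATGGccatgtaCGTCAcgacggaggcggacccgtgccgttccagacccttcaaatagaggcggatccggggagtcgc
EGR2: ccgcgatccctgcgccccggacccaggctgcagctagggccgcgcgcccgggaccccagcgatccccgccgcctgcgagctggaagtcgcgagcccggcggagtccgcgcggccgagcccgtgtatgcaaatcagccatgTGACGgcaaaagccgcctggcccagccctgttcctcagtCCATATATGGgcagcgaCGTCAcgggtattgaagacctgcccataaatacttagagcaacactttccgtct
FOS: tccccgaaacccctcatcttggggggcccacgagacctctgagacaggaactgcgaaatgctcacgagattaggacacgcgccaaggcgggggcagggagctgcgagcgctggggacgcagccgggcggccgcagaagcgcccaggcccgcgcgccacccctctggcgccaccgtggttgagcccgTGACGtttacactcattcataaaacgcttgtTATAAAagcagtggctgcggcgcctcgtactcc
JUN: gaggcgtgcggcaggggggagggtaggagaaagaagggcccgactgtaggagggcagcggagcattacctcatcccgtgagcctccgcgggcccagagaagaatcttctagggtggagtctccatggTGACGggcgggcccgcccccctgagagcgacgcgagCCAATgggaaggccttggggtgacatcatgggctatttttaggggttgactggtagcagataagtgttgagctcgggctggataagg
JUNB: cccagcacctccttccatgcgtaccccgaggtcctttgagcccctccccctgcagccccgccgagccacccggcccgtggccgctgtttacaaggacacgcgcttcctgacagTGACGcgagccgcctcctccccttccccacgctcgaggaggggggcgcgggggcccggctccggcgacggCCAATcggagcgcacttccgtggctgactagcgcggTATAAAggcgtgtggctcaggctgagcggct
JUND: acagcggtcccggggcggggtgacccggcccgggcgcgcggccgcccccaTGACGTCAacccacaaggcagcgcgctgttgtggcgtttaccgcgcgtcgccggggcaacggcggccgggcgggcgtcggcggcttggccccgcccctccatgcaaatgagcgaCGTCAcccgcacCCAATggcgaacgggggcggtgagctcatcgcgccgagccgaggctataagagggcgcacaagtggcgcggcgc
IER2: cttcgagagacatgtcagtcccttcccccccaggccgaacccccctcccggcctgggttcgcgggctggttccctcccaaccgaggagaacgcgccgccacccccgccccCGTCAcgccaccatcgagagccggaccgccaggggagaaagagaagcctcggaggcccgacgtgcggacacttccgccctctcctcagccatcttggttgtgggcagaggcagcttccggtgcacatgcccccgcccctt

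All 10 genes had at least 1 peak inside the gene or within 1000 bp of it in a ΔNSPs clone, and none had one in a control line. Clone 1 had such a peak at 10 genes, clone 2 at 9 (all but EGR2) and clone 3 at 5 (EGR1, FOSB, JUNB, JUND and IER2), against 0 genes in each of control lines 1, 2 and 3. The groups did not overlap for these 5 genes, which had a peak in every clone and in no control line, against 7.49% of all protein-coding genes. Over all 19974 protein-coding genes, the shares with such a peak were 47.5%, 46.4% and 8.9% in clones 1, 2 and 3. In each clone the share among the 10 genes was above the share of all genes. The genes are short, with a median length of 4163 bp against 24170 bp over all protein-coding genes. All but ATF3, or 9 of the 10, were no longer than the median of all genes. The bearing of gene length on these shares was not tested.

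**Figure D1:**
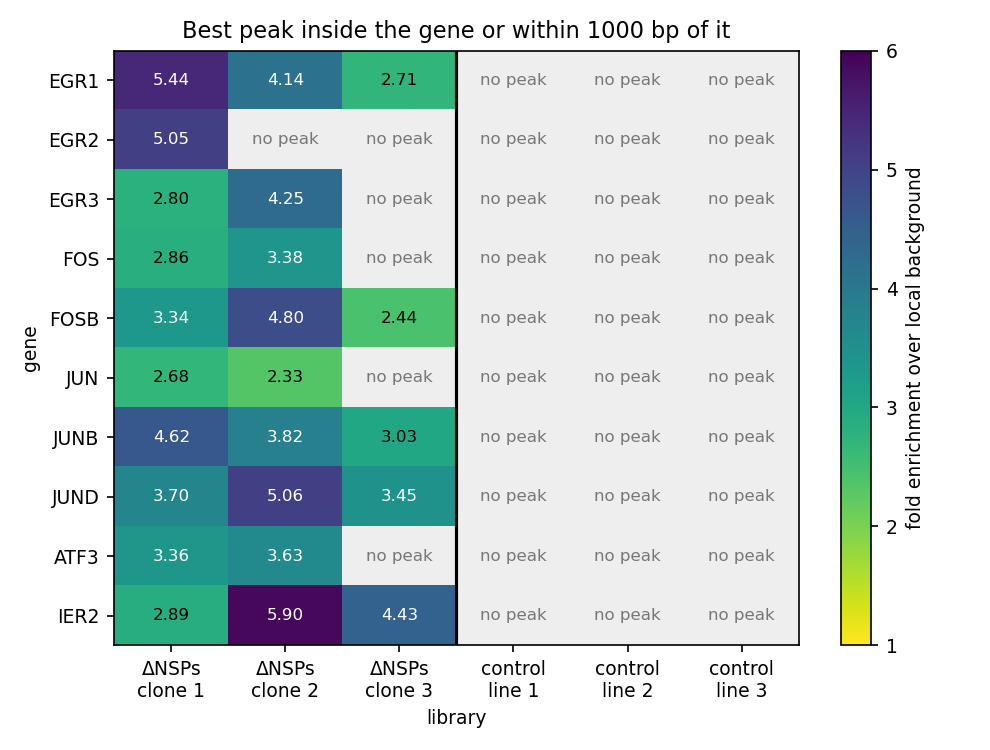
Fold enrichment over the local background of the best peak (highest −log10 q) inside each gene or within 1000 bp of it, by library, with the 3 ΔNSPs clones to the left of the 3 control lines. Values run between 2.33 at JUN and 5.90 at IER2, both in clone 2, and every control cell holds no peak.

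EGR1 encodes a zinc finger transcription factor and lies on chromosome 5 at 138465479-138469303. Its best gene-end peak had a fold enrichment of 5.44, 4.14 and 2.71 in clones 1, 2 and 3, against no peak in control lines 1, 2 and 3. The −log10 q values were 21.94, 13.73 and 2.80, and the summits lay 550, 53 and 646 bp upstream of the start. The peak thus stood high in clones 1 and 2 and low in clone 3, where 30.3% of all gene-end peaks had a lower −log10 q, against 99.1% and 87.5% in clones 1 and 2. The pile-up at the summit was 62, 53 and 31 reads over a background of 10.6, 12 and 10.8 reads. Together the peaks formed a single region of 870 bp, from 138464691 to 138465560, of which clone 1 held 1 wide peak and clones 2 and 3 held 2 narrower peaks each. Outside it, clone 1 had a peak 1.31 kb upstream (3.00-fold) and clone 2 one 15.4 kb upstream (4.80-fold), each in that clone alone.

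In the EGR1 promoter the peaks covered different stretches. With bases counted from 1 at the upstream end of the printed run and on through the 50 bases after the start, clone 1 covered bases 1 to 300, clone 2 bases 145 to 220 and clone 3 bases 1 to 146. Both CArG boxes, at bases 146 to 155 and 168 to 177, lay under the peaks of clones 1 and 2, and the clone 3 peak reached the first base of the upstream one. CArG boxes begin 105 and 83 bp upstream of the start there, and TGACG occurs 135 and 66 bp upstream on the opposite strand. A CArG box was found in the windows of 2 of the 9 genes that have one in the RefSeq table, EGR1 and EGR2, and in 1.25% of all 22156 promoter windows. The windows reach only 250 bases upstream, so a CArG box farther out would not be found.

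EGR2, a zinc finger factor known for its part in myelination and in immune cells, lies on chromosome 10 at 62811996-62819167. At the gene it had a peak in clone 1 only, at 62816431-62816826 inside the gene, with a fold of 5.05, a −log10 q of 17.01 and a pile-up of 52 reads over 9.5. No peak lay there in clone 2, clone 3 or control lines 1, 2 and 3. Its summit was 143 bp upstream of the third listed start, and the peak covered bases 1 to 186 of that window, which includes part of the CArG box at bases 180 to 189. The windows at the other 2 listed starts held no peak in any library. Clone 1 alone also had a 3.86-fold peak 6.92 kb outside the gene, at an end of another protein-coding gene. EGR2 was the only one of the 10 genes without a peak within 50 kb in clone 2, although clone 2 had the longest list.

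EGR3, another zinc finger factor of the family, lies on chromosome 8 at 22687659-22693480. A peak just outside its higher-coordinate end had a fold of 2.80 in clone 1 and 4.25 in clone 2, against no peak in control lines 1, 2 and 3, and clone 3 had none either. The −log10 q was 2.21 and 5.26, and the best summits were 18 bp apart. At 19 and 20 reads these were among the smallest pile-ups of the 10 genes. Within 50 kb there were 6 EGR3 sites in all. Besides the one at the gene end, 3 were shared by clones 1 and 2, at 14.1, 11.4 and 22.3 kb outside the gene, with folds of 4.79 and 3.42, 3.05 and 4.45, and 2.45 and 2.49 in clones 1 and 2. The last 2 were in 1 clone each: clone 1 had a 3.13-fold peak 1.71 kb outside the gene, and clone 2 a 4.38-fold peak 48.3 kb outside, whose −log10 q of 6.89 was the highest at EGR3 in that clone. Only 8.25% of the genes on chromosome 8 were clone-shared at a gene end, the lowest share of the chromosomes that hold these genes. The strand of EGR3 was not among the annotations used here, so its start was not placed.

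FOS and FOSB encode leucine zipper proteins that pair with JUN proteins to form AP-1. FOS lies on chromosome 14 at 75278828-75282230. Clone 1 had a peak over its start, at 75278569-75278911, with a fold of 2.86, a −log10 q of 2.33 and a pile-up of 19 reads. Clone 2 had one immediately upstream, at 75278456-75278557, with a fold of 3.38, a −log10 q of 5.65 and a pile-up of 31 reads. The peaks of clones 1 and 2 did not overlap, and neither clone 3 nor any control line had one. The clone 1 peak covered all of the promoter window, including TATAAA 33 bp and TGACG 64 bp upstream. The clone 2 peak ended before that window, so the sequence under it was not searched for motifs. FOS was flanked by a pair of sites shared by clones 1 and 2, where the positions agreed closely. The site 19.7 kb upstream had folds of 3.10 and 4.51 with summits 4 bp apart, and the site 15.3 kb downstream of the start had folds of 3.60 and 5.06 with summits 11 bp apart. Both had a higher −log10 q than the peak at the gene in the same clone, at 7.76 and 16.19 for the upstream site and 6.23 and 10.30 for the downstream site.

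FOSB lies on chromosome 19 at 45467996-45475179. A site 1.31 kb into the gene, at 45468986-45469620, had a peak in every clone, with folds of 3.34, 4.80 and 2.44, −log10 q of 10.80, 11.19 and 2.93 and pile-ups of 57, 36 and 40 reads in clones 1, 2 and 3, against no peak in control lines 1, 2 and 3. The start itself had a peak in clone 1 only, 3.58-fold with 11 reads. Thus FOSB counted as a gene-end call in clone 1 alone, while the site inside it was shared. Its surroundings were the most peak-rich of the 10 genes, with 17 sites within 50 kb, of which 5 were clone-shared and 1 was in all 3 clones.

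**Figure D2:**
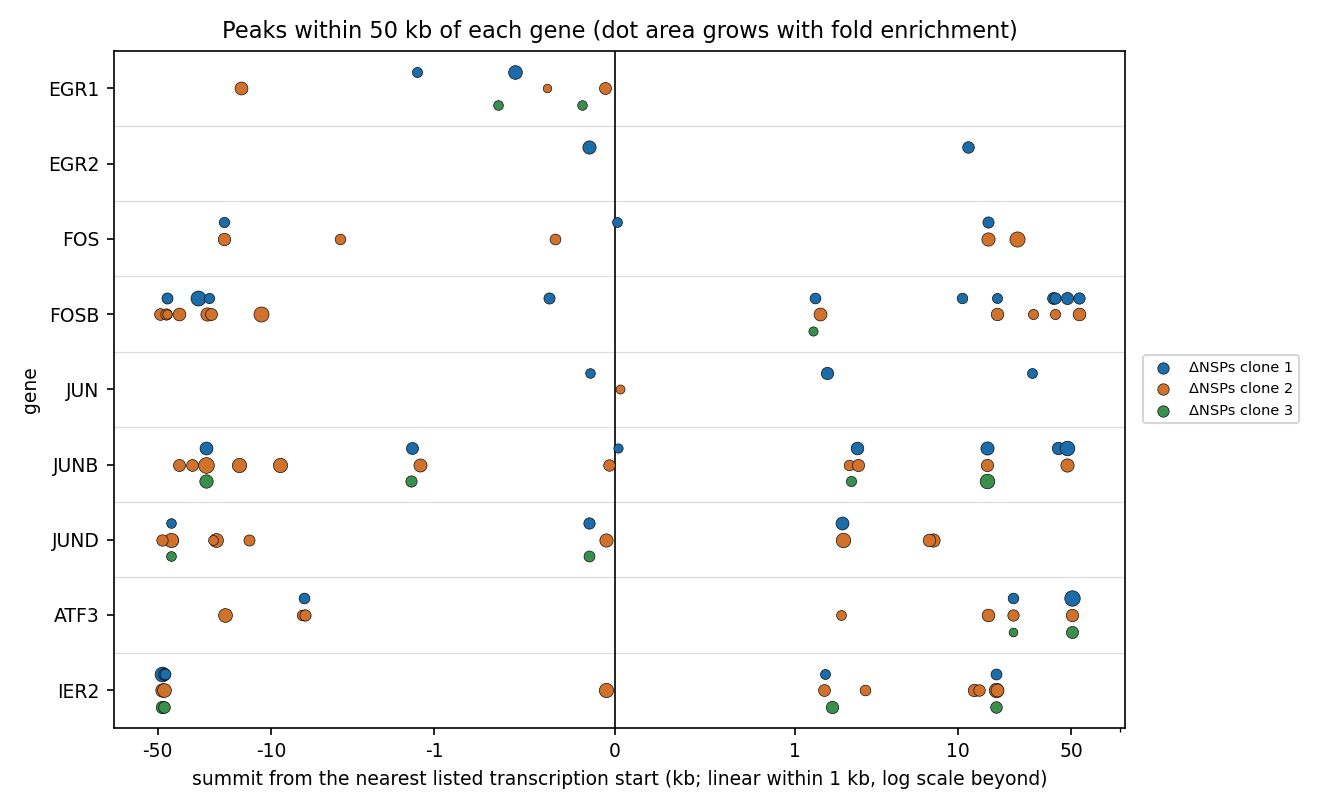
Summit positions of all peaks within 50 kb of the 9 genes with a listed transcription start, in kb upstream (negative) and downstream of the nearest start, linear within 1 kb and on a log scale beyond. Each dot is a peak of a ΔNSPs clone with its area growing with fold enrichment, and no control line had a peak to plot. Sites of all 3 clones stand out as 3 dots above one another, 4 of them at JUNB and 4 at IER2.

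JUN, JUNB and JUND encode the basic leucine zipper proteins that form the JUN side of AP-1. JUN lies on chromosome 1 at 58780791-58784047. Its gene-end peak had folds of 2.68 and 2.33 and −log10 q of 6.94 and 2.14 in clones 1 and 2, against no peak in control lines 1, 2 and 3, and clone 3 had none. Pile-ups were 55 and 28 reads, but the backgrounds of 19.9 and 11.4 reads were high too, and these were the lowest folds of a best peak in each of the 2 clones. Clone 1 covered bases 1 to 251 of the promoter window, with TGACG 123 bp and CCAAT 87 bp upstream, and clone 2 bases 227 to 300, around the start. A peak inside the gene, 4.38-fold with a pile-up of 13 reads, and one 28.5 kb downstream of the start were in clone 1 alone.

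JUNB, often a restraining partner within AP-1, lies on chromosome 19 at 12791486-12793315. The peak at its start was 2.49-fold in clone 1 and 3.82-fold in clone 2, against none in control lines 1, 2 and 3, and clone 3 had none. That peak also lies within 1000 bp of an end of HOOK2, a microtubule adaptor gene, so it cannot be given to JUNB alone. A site beyond the other gene end, 2.29 kb from the start, was in all 3 clones with folds of 4.62, 4.31 and 3.03 and −log10 q of 9.53, 5.91 and 2.12. A further site 1.31 kb upstream had folds of 4.17, 4.92 and 3.65 and pile-ups of 55, 34 and 59 reads. It lay 1037 bp outside the gene and so just missed the 1000 bp window, yet in clone 3 its −log10 q of 11.37 was far above the 2.12 of the counted peak. The sites 25.3 kb upstream (4.81, 7.07 and 5.16-fold) and 15.1 kb downstream (5.00, 4.37 and 6.19-fold) were in all 3 clones as well. The downstream one lies at an end of RNASEH2A, a subunit gene of ribonuclease H2. JUNB thus had 4 sites present in every clone and in no control line.

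JUND, the JUN protein that many resting cells express, lies on chromosome 19 at 18279694-18281622. The peak at its start was present in every clone at a similar strength. It had folds of 3.70, 5.06 and 3.45, −log10 q of 10.33, 14.56 and 8.97 and pile-ups of 47, 44 and 52 reads in clones 1, 2 and 3, against no peak in control lines 1, 2 and 3. In clones 1, 2 and 3, 86%, 88.9% and 94.9% of the gene-end peaks of the list had a lower −log10 q, so it was high in each clone, the short list of clone 3 included. The promoter was covered over bases 1 to 268, 1 to 255 and 9 to 231. All 3 peaks held TGACGTCA 200 bp upstream and CCAAT 74 bp upstream. TGACGTCA was found in 2.26% of all promoter windows and in no other of the 9 genes. A site at the other gene end was 4.81-fold in clone 1 and 6.06-fold in clone 2, and absent from the list of clone 3. At 41.6 kb upstream, all 3 clones had a peak at an end of LSM4, a gene of an RNA-binding complex, with folds of 2.70, 5.85 and 2.77.

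ATF3 encodes a stress-induced basic leucine zipper factor that can pair with JUN proteins, and lies on chromosome 1 at 212565407-212620777, the longest of the 10 genes at 55371 bp. Neither of its 2 listed starts had a peak in any library. Any start that is not listed was not examined, so the site described next cannot be placed against one. Clones 1 and 2 shared a site inside the gene at 212608443-212608832, with folds of 3.36 and 3.63 and pile-ups of 49 and 37 reads, against no peak in control lines 1, 2 and 3. Clone 3 had none there, but it shared 2 sites outside the gene with clones 1 and 2. The one 15.9 kb away had folds of 3.26, 3.71 and 2.21, and the one 44.6 kb away 6.88, 4.46 and 4.24 in clones 1, 2 and 3. The promoter windows at the 2 listed starts of ATF3 were the poorest in CpG of the 9 genes, with GC contents of 48% and 46.3% and 4 and 1 CpG.

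IER2, which encodes a nuclear protein induced early by growth signals, lies on chromosome 19 at 13150411-13154911. Its start had a strong peak in clone 2 only, with a fold of 5.90, a −log10 q of 16.10 and 41 reads, against no peak in clones 1 and 3 or in control lines 1, 2 and 3. That peak lies at an end of STX10, a syntaxin gene, as well. It covered bases 111 to 300 of the promoter window, including TGACG 140 bp upstream and CCGGAAG, an ETS site, 27 bp upstream, both on the opposite strand. A site 1.58 kb into the gene was in all 3 clones, with folds of 2.89, 4.07 and 4.43 and pile-ups of 31, 32 and 21 reads. So the start of IER2 was listed in 1 clone and the site inside it in all 3. Within 50 kb, the sites 17.3 kb downstream, at an end of LYL1 47.1 kb outside the gene and at an end of TRMT1 45.6 kb outside it were in all 3 clones too. LYL1 is a haematopoietic transcription factor gene and TRMT1 a tRNA methyltransferase gene, and their folds were 6.30, 5.19 and 4.48 at LYL1 and 3.97, 5.46 and 3.92 at TRMT1.

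Counted at gene ends alone, 6 of the 10 genes (EGR1, EGR3, FOS, JUN, JUNB and JUND) were clone-shared, against 23.3% of all protein-coding genes. EGR1, JUNB and JUND had a peak there in all 3 clones, against 5.4% of all genes. By clone, 7, 7 and 3 of the 10 had a gene-end peak in clones 1, 2 and 3, against 39.1%, 29.6% and 6.55% of all genes. Counted by the transcription start alone, with 1000 bp either side, 5 of the 9 genes with a listed start (EGR1, FOS, JUN, JUNB and JUND) were clone-shared, against 25.4% of 15813 genes. Over the gene with 1000 bp either side, 9 of the 10 were clone-shared, against 34.1% of all genes, and 5 in all 3, against 7.49%. The share among these genes was above the share of all genes in each window, and the count rested on clones 1 and 2. Without clone 1, or without clone 2, the gene-end count was 3 (EGR1, JUNB and JUND), and over the gene with 1000 bp either side it was 5. Over all genes the gene-end share was then 5.63% without clone 1 and 6.21% without clone 2, and the share over the gene with 1000 bp either side was 8% and 8.24%. Per gene, no test of presence can pass with 3 libraries against 3. The two-sided Fisher's exact test over libraries had a lowest p of 0.1 and a lowest adjusted p of 1, with 0 genes under 0.05 before or after adjustment.

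**Figure D3:**
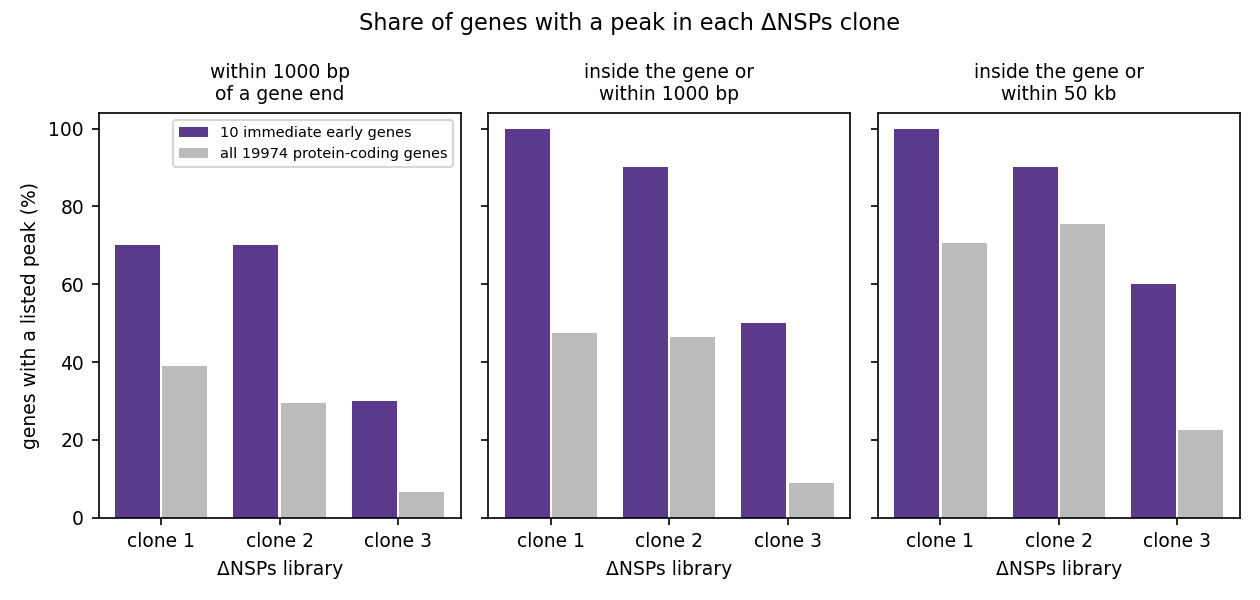
Percent of genes with a listed peak in each ΔNSPs clone, with the 10 immediate early genes to the left of all 19974 protein-coding genes, for 3 windows: within 1000 bp of a gene end, inside the gene or within 1000 bp, and inside the gene or within 50 kb. Bars are shares of genes in 1 library each and carry no error, and the 10 genes stand above all genes in every panel.

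The counts were repeated at a −log10 p of 8.9 or more. It is the lowest value among the 2 peaks of control line 3 and is not a known threshold of calling. Of the peaks at the 10 genes, 8 of 14 in clone 1, 11 of 17 in clone 2 and 2 of 6 in clone 3 reached that p. These shares were 57.1%, 64.7% and 33.3%. Over all peaks of the same lists the shares were 39.2%, 41.3% and 32.4%. With every list held to that p, a choice made after the data were seen, 3 of the 10 genes (EGR1, JUNB and JUND) were clone-shared at a gene end, against 10.1% of all genes. In clone 3 the peaks that reached it were those of JUND and IER2. At this strictness EGR3, FOS and JUN had a gene-end peak in at most 1 clone.

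The median pile-up at these genes was above that of all gene peaks in each clone, though only slightly in clone 3. The medians rest on 14, 17 and 6 peaks in clones 1, 2 and 3. The median pile-up at peaks inside the 10 genes or within 1000 bp was 33.5, 32 and 31.5 reads in clones 1, 2 and 3, over a median background of 9.8, 7.89 and 11.1 reads. Over all peaks inside or within 1000 bp of any protein-coding gene, the medians were 25, 21 and 30 reads, over backgrounds of 6.14, 4.14 and 8.8 reads. Both the pile-up and the local background were thus higher at the 10 genes in each clone. The median fold there was 3.47, 3.82 and 2.87, against 3.54, 4.16 and 3.35 over all peaks of the lists, so the folds of these genes were slightly below the list medians. Unlike the read medians above, the list medians also take in peaks away from genes. The lowest −log10 q values of a best gene-end peak, between 2.12 and 2.33, were those of JUNB in clone 3, JUN in clone 2, EGR3 in clone 1 and FOS in clone 1.

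**Figure D4:**
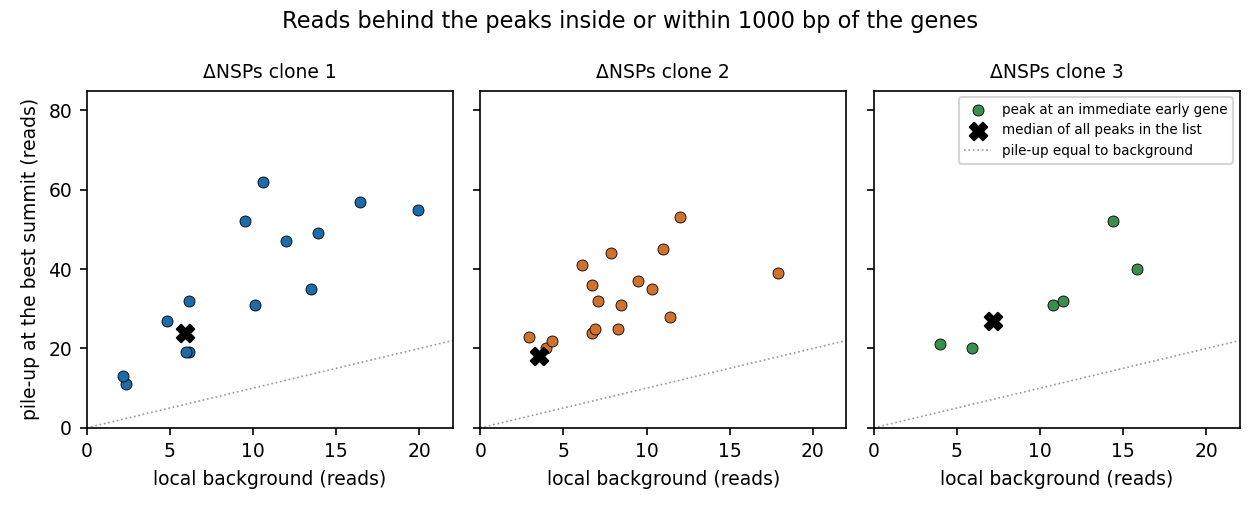
Pile-up at the best summit against the local background, both in reads, for each peak inside the 10 genes or within 1000 bp, in a panel for each ΔNSPs clone. The cross is the median of all peaks in that list, and the dotted line marks a pile-up equal to background. Pile-ups span 11 to 62 reads in clone 1, 20 to 53 in clone 2 and 20 to 52 in clone 3, and control lines are not drawn because they had no peak at these genes.

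Within 50 kb, clones 1, 2 and 3 had 44, 64 and 15 distinct peaks around the 10 genes, against 0 in each of control lines 1, 2 and 3. All 10 genes had a peak in clone 1, 9 in clone 2 and 6 in clone 3 (EGR1, FOSB, JUNB, JUND, ATF3 and IER2). Over all protein-coding genes the shares were 70.5%, 75.4% and 22.5% in clones 1, 2 and 3, and 0.0701%, 0.01% and 0.015% in control lines 1, 2 and 3. By this window 9 of the 10 were clone-shared, against 62.5% of all genes, and in all 3 clones 6, against 21.1%. The median gene of the 10 had 3, 6.5 and 1.5 peaks within 50 kb in clones 1, 2 and 3, against 1, 2 and 0 for the median of all genes. The nearest control peak to any of them lay 72.4 Mb away in control line 1 and 30.3 Mb away in control line 2. Most had no control peak on their chromosome at all, with 8, 8 and 10 such genes in control lines 1, 2 and 3.

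Merged across libraries, these peaks made 74 sites, of which 29 (39.2%) were clone-shared and 14 (18.9%) in all 3. Over the 32822 regions of all lists merged in the same way, 20.9% were clone-shared, and 3.82% in all 3. Those regions were not limited to the surroundings of genes, as the 74 sites were. Of the 74 sites, 18 lay at the genes and 56 farther out. Among the sites at the genes 10 (55.6%) were clone-shared and 5 (27.8%) in all 3, and among those farther out 19 (33.9%) and 9 (16.1%). Clone 1 alone held 15 sites and clone 2 alone 30, but clone 3 alone held 0, so each site of the short list was also in a longer one. Without clone 1, or without clone 2, the 29 clone-shared sites were 14. Of the 56 distal sites, 14 lay within 1000 bp of an end of another protein-coding gene. FOSB, JUNB, JUND and IER2 are on chromosome 19, where 32% of all regions and, at gene ends, 31.8% of all genes were clone-shared. A typical gene there had 3, 4 and 1 peaks within 50 kb, and the share of the chromosome in the counts of these 4 genes was not tested.

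The promoters of the 9 genes with a RefSeq window were close to the genome's in base composition. Their 12 windows had a median GC content of 64.3%, 28 CpG and a CpG observed over expected of 0.766, against 62.3%, 21 and 0.738 over all 22156 windows. The shorter element TGACG was found in 8 of the 9 genes (all but ATF3) and in 27.9% of all windows. TATAAA was found in FOS, FOSB, JUNB and ATF3, against 9.46% of all windows, and CCAAT in JUN, JUNB, JUND and ATF3, against 34.6%. GGGCGG, an SP1 site, was in 7 of the 9, against 56.3%, and CCGGAAG in IER2 alone, against 12.8%. TGANTCA and the EGR site GCGTGGGCG were in none of the 9, against 6.16% and 1.05% of all windows. A gene with several listed starts had more than 1 window in which a match could fall, and TGACGTCA contains TGACG. All these motifs were searched on both strands, and a match is a description of the letters only.

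The genes that act before and beside these factors were counted at gene ends as clone-shared, set against 23.3% of all genes. Among 40 other immediate early genes 10 were called (25%), with none in all 3 clones. By clone, 27, 11 and 1 of the 40 had a gene-end peak in clones 1, 2 and 3, against 39.1%, 29.6% and 6.55% of all genes. Of the 40, 11 had none in any clone, EGR4, ZFP36L1, SGK1, CCN1 and ARC among them. Of 30 AP-1 and related leucine zipper partners 8 were called (26.7%). ATF2, CREB1 and CREB3, which bind cyclic AMP response elements or related sites, were in all 3 clones. In clones 1, 2 and 3 the folds were 3.14, 5.58 and 2.32 at CREB3 and 2.78, 3.50 and 2.03 at ATF2, against no peak in any control line. ATF6, BATF, BATF2, BATF3 and CREB5 had none in any clone.

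Regulators of the serum response pathway had 5 of 10 genes called (50%). They were SRF itself, the ternary complex factors ELK1 and ELK4, the coactivator EP300 and MRTFA, an actin-sensing coactivator of SRF, which was in all 3 clones with folds of 3.01, 4.98 and 2.99. SRF was 2.97-fold in clone 1 and 2.58-fold in clone 2, with no peak in clone 3 or any control line. ELK3, MRTFB and FHL2 had none in any clone. In the MAP kinase list 9 of 24 were called (37.5%), and MAP2K7, a kinase that activates JNK, and RPS6KA5, a kinase that phosphorylates CREB and histone H3, were in all 3 clones. MAP2K7 had folds of 4.19, 2.44 and 3.99, and NRAS, MAP2K4, MAP2K6, MAP3K1 and MAPK9 had no peak in any clone. Of 17 feedback phosphatases and inhibitors 4 were called (23.5%), with DUSP10, a phosphatase of stress-activated MAP kinases, in all 3 clones at 2.33, 3.76 and 1.78-fold, and DUSP4, DUSP8, DUSP16, SPRY1 and SPRED1 in none. Of the 4 EGR corepressors and related genes NAB2, which binds EGR proteins and represses their activity, was the only one called, and EGR4 and WT1 had no peak. Across all lists 37 of 120 distinct genes (30.8%) were called, 7 of them in all 3 clones. By clone, 77, 39 and 10 of the 120 had a gene-end peak in clones 1, 2 and 3, against 39.1%, 29.6% and 6.55% of all genes. Without clone 1 the count of 37 was 7, and without clone 2 it was 9.

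For EGR1, JUNB and JUND, which all 3 clones list at a gene end, the most alike of the 1079 such genes were found by the percentile of −log10 q within each clone's list. For EGR1, at percentiles of 99.5, 93 and 34.6 in clones 1, 2 and 3, they were CACYBP (96.5, 96.2 and 37.7) and KPNB1 (96, 90.7 and 35.6). For JUNB, at 87.4, 86.9 and 5.67, they were PPCS and ZMYND12, which share 1 peak (87, 83.7 and 5.67). The JUNB percentiles do not describe a single site. In clones 1 and 3 they are those of the peak beyond the far gene end, and in clone 2 that of the peak at the start. For JUND, at 90, 94 and 96, they were CEP152 (90.5, 94.5 and 96.5) and SGTA (89, 97 and 94.9). The largest difference over the 3 clones was 0.552 percentile points for CEP152 and between 3.01 and 3.46 for the others. Likeness here rests on 3 libraries and ranks peaks only.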

How the data were processed

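ATAC-seq libraries of 3 ΔNSPs U937 clones and 3 control lines, grouped and numbered by the sample titles, were analysed from the authors' deposited peak lists, 1 per library. The submitters' processing notes name GRCh38 as the build and, with no versions, MACS2, Bowtie2, Picard and FastQC. Settings, and any shift of reads for the transposase, were not given in the sources used here. For each summit the authors deposited a fold enrichment, the ratio of the pile-up to its local background, with the −log10 q and −log10 p. A score that the authors deposited beside them stayed unused.

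Lines sharing an interval were counted as 1 peak with its best summit by −log10 q. Pile-up and background were solved from fold, as (pile-up + 1)/(background + 1), and the Poisson p; pile-ups came out whole, within 0.05 read, for 100% of peaks. Library depth is unknown, so no interval or floor is given. Genes and promoter windows (250 bases before to 50 from the start) came from RefSeq tables (GRCh38.p14); an overlap of 1 bp with a window counted. No exon annotation was used. Work was done in Python 3.11.15 with NumPy 2.4.6 and SciPy 1.17.1, and the solving and counting were tested on simulated data.

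The 10 genes and all gene lists were chosen with earlier results of these data known. Named genes are the 10, genes sharing their best peak, list genes called in all 3 clones or, up to 5 by list order, in none, and the 2 most alike by percentile of −log10 q. SRF, ELK1, ELK4, EP300 and NAB2, the clone-shared markers and the genes at distal sites (RNASEH2A, LSM4, LYL1 and TRMT1) were named after their values were seen. A list gene that the rule would name is not reported here. Calls per list and per gene were described without a test. Presence per gene was tested by Fisher's exact test, adjusted by the Benjamini-Hochberg method over all genes. Alternatives covered windows, thresholds, list length, clones required and each library left out.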

Additional observations from a re-analysis of the deposited data

How the results depend on the processing

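The count of 6 immediate early genes that were clone-shared at a gene end was 3 (EGR1, JUNB and JUND) under each of 5 settings. They were a −log10 q of 5 or more, a fold of 4 or more, and clone lists cut to an equal 2188 peaks. The others were all 3 clones required and a −log10 p of 8.9 or more. The count was between 3 and 6 when each library was left out. Under the same 5 settings, in that order, all protein-coding genes had 2189, 876, 978, 1079 and 2008 in place of 4652, and between 1124 and 4652 without each library. The pathway lists had 15, 6, 7, 7 and 13 in place of 37, and between 7 and 37 without each library. Over the gene with 1000 bp either side, for which all alternatives were chosen after seeing the data, the count of 9 was 5 at the −log10 q, 4 at the fold, 5 with equal lists and 5 with all 3 clones required, against 16.2%, 9.49%, 6.68% and 7.49% of all genes, and between 5 and 9 without each library. The falls with fewer or shorter lists follow from their construction. The count of 9 within 50 kb was between 6 and 10 under all alternatives run, while the share of all genes ran between 21% and 73.4%. Of 90 counts of single lists 42 moved by over 1.5 times. The fold of the best gene-end summit changed in 4 of 17 cases when the summit was chosen by fold. The presence test had 0 genes under 0.05, and the exact McNemar test with the replicate number as a block also had 0, with a lowest p of 0.25. The labels give the shared numbers no further meaning, and control lists with almost no gene-end peak leave no deviations by which to check the pairing. Unknown read totals and short control lists limit every comparison with the control lines.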

Other observations

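Genes were split into 5 groups of equal size by the GC content of a promoter window, lowest to highest, with each gene placed once. Clone-shared peaks within 1000 bp of the transcription start were found for 5.76%, 25.5%, 35.5%, 35.4% and 25.1% of the genes. ATF3, with no peak at its listed starts, fell in the group of lowest GC. FOS, FOSB and JUN fell in the third, EGR1, JUNB and IER2 in the fourth and EGR2 and JUND in the highest. Of those 8 genes, FOSB, IER2 and EGR2 had no such call. Of the listed EGR2 windows, only the one of 77.3% GC fits the highest group. The EGR2 peak of clone 1 lay at another window, of 63.7% GC.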
